A study of Mus musculus with 12 samples.

Results

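The genes of heme breakdown and iron handling were followed in the RNA of 2 cell types taken from mice 24 h after renal ischemia-reperfusion injury (IRI), a model of acute kidney injury in which both renal pedicles are clamped and then released. The set holds 9 genes: Hmox1 and Hmox2, which encode the heme oxygenases; Blvra and Blvrb, which encode the biliverdin reductases; Fth1 and Ftl1, which encode the heavy and light chains of ferritin; Tfrc, the transferrin receptor; Slc40a1, the iron exporter ferroportin; and Slc11a2, the divalent metal transporter DMT1. They were picked by symbol, and all 9 were found among the 50433 gene rows of the table of tubular epithelial cells (TECs) and among the 50434 rows of the table of neutrophils (PMN). The question was whether Hmox1 moves with the other heme and iron genes when glutamine is given.

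All mice were wild type, male C57BL/6J animals aged 8 to 12 weeks, and all had undergone IRI, so that no group here shows the level without injury. TECs came from kidney and were obtained by sorting for cells with Prominin-1 and without CD45, and PMN came from blood. The 12 libraries form 4 groups of 3: TECs with vehicle (replicates 3, 4 and 5), TECs with glutamine (replicates 1, 2 and 3), PMN with vehicle and PMN with glutamine (3 each). The TEC replicate numbers are those of the labels; the PMN labels carry none, and those libraries are called replicates 1, 2 and 3 in the order of their records, as names alone. Glutamine was given intravenously as the dipeptide alanyl-glutamine and vehicle was physiologic saline. For the TEC experiment, the legend of the study's gene list places the dose 15 min after reperfusion. Its text gives 4 h for the mice in which kidney function was measured. The timing for PMN is not given in the sources used here. The labels name separate samples without tying each to one animal, so p-values measure the spread between these samples. In bulk RNA, fewer cells of a type and less RNA per cell cannot be told apart.

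Heme oxygenase opens the heme ring and releases iron, carbon monoxide and biliverdin, which the reductase encoded by Blvra turns into bilirubin. The iron set free is stored in the ferritin shell or leaves the cell through ferroportin, while the transferrin receptor and DMT1 bring iron in. Hmox1 is the stress-inducible heme oxygenase and is known to be induced in injured renal tubules, whereas Hmox2 is the constitutive form. Several of these mRNAs carry iron-responsive elements (IREs), hairpins that iron regulatory proteins bind when iron is scarce: an IRE in the 5′ untranslated region (UTR) then blocks translation, and IREs in the 3′ UTR protect the mRNA from decay.

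Matches to a strict pattern of these hairpins were searched for in the 9 genes and are shown. A search of the GENCODE M21 transcripts (GRCm38) for a bulged C, 5 stem bases, a loop of 6 bases beginning with CAGTG and 5 bases pairing with the stem found 1 element in Fth1, 1 in Ftl1, 1 in Slc40a1 and 4 in Tfrc. No match was found in Hmox1, Hmox2, Blvra, Blvrb or Slc11a2, which says only that these letters are not in the transcripts searched. A hairpin that departs from this pattern would be missed in any of the 9 genes, so the matches do not divide them into genes with and without IREs. Of 21901 protein-coding genes, 222 (1.01%) held at least 1 match. In the sequences below, capitals mark the bulged C and the loop; the elements of Fth1, Ftl1 and Slc40a1 lie in the 5′ UTR, and those of Tfrc in the 3′ UTR.
Fth1, chr19:9982734-9982759, plus strand: cctgCttcaaCAGTGCttgaacggaa
Ftl1, chr7:45459780-45459805, minus strand: cttgCttcaaCAGTGTttgaacggaa
Slc40a1, chr1:45925466-45925491, minus strand: acttCagctaCAGTGTtagctaagtt
Tfrc, chr16:32631221-32631246, plus strand: ttatCggaagCAGTGCcttccataat
Tfrc, chr16:32631600-32631625, plus strand: ttatCgggagCAGTGTcttccataat
Tfrc, chr16:32631665-32631690, plus strand: atatCggagaCAGTGAtctccatatg
Tfrc, chr16:32631712-32631737, plus strand: ttatCgggaaCAGTGTttcccataat

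The depth was 5397370 to 10223461 counts per TEC library and 20225246 to 21878446 per PMN library. Values are given as counts per 1000000 counts of the library (CPM) after scaling of the libraries by the TMM method. The sort marker Prom1 was at 64.6 to 83.5 CPM in the TEC libraries, and Ptprc, which encodes CD45, at 0.1 to 2.74 CPM. In the PMN libraries the neutrophil genes S100a8 (19061 ± 6563 CPM with vehicle, SD, n = 3) and Csf3r (882 ± 298 CPM) were abundant, and so was the macrophage gene C1qb (1371 ± 430 CPM). The PMN libraries were patchy: of 8845 genes with at least 500 counts in one library, 3760 (42.5%) had no count in another, against 7 of 3746 (0.187%) in TECs. Cell type and sequencing run coincide, so levels were not tested between TECs and PMN.

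In TECs, Hmox1 was the member with the largest difference, and it was higher with glutamine, while 7 of the 8 other genes had lower mean levels. Hmox1 lies on chr8:75093621-75100589 (plus strand, 5 exons in its main transcript of 1569 bases) and shares no 50-base stretch with another gene. It had 53.5, 91.1 and 136 CPM in the vehicle libraries and 198, 258 and 400 CPM in the glutamine libraries. Every glutamine library lay above every vehicle library, and vehicle replicate 5 came nearest to the glutamine group. The means were 93.6 ± 41.4 CPM under vehicle and 285 ± 103 CPM under glutamine (SD, n = 3), a fitted ratio of 3.05.

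The log2 fold change of Hmox1 in TECs was 1.61 (standard error, SE, 0.35), with an unadjusted p of 0.00079 and an adjusted p of 0.178 in the quasi-likelihood test of edgeR (Benjamini-Hochberg method over 14734 genes). Among those genes, 377 (2.56%) had a higher log2 fold change, and Hmox1 stood at rank 64 by p. None of the 9 members, like none of all genes tested (0%), had an adjusted p below 0.05 in edgeR with its default expression filter. The smallest adjusted p of any gene was 0.101, and 1878 genes had an unadjusted p below 0.05. Without a filter on low counts, edgeR called 425 of 29116 genes and, of the members, Hmox1 alone (adjusted p = 1.28e-07). DESeq2's Wald test, an alternative, called 245 of 12826 genes (1.91%) and, of the members, Hmox1 alone, with an adjusted p of 0.000498. limma-voom, with 0 genes called and 1900 at an unadjusted p below 0.05, gave Hmox1 an adjusted p of 0.175.

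**Figure D1:**
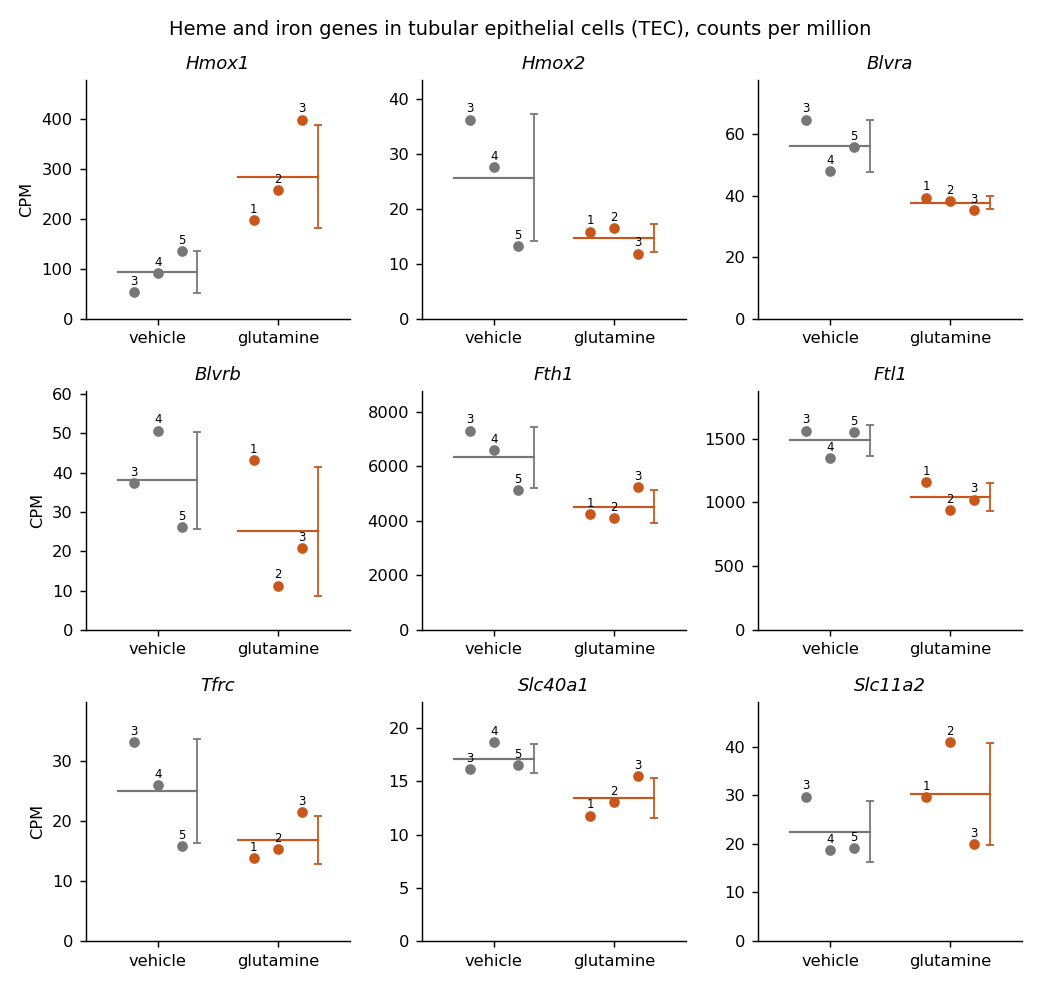
CPM of each of the 9 genes in the 6 TEC libraries; points are libraries with their replicate numbers, horizontal lines the group means and bars the SD (n = 3), and each axis starts at 0 with its own range. The 3 glutamine points of Hmox1, at 198 to 400 CPM, lie above the vehicle points, whereas those of Blvra, Ftl1 and Slc40a1 lie below them.

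Markers of macrophages, which express Hmox1, of red cells and of the tubule are given beside this result. The summed level of 15 macrophage markers was 81.7 to 173 CPM in the vehicle TEC libraries and 77.0 to 148 CPM in the glutamine libraries, with Marco at 0 throughout and the defining marker Adgre1 at no more than 0.592 CPM; of the 8 tested, 5 had a higher fitted level with glutamine (median log2 fold change 0.67), 1 of them, Lyz2, at an unadjusted p below 0.05. Lyz2 had groups that did not overlap, at 1.12 to 2.56 CPM under vehicle and 3.95 to 12.5 CPM under glutamine. The 9 red cell markers summed to 809 to 4402 CPM under vehicle and 978 to 6712 CPM under glutamine, with none at 0 in all libraries, and 4 of the 5 tested had a higher fitted level (median log2 fold change 0.49). Of 10 proximal tubule markers, all had a higher fitted level with glutamine (median log2 fold change 0.55). At an unadjusted p below 0.05 in edgeR were 4 of them, all higher. Of all genes, 12.7% were below 0.05 in either direction. In the lower direction were 5.51% of all genes, and the rest of the 12.7% were higher. The proximal tubule markers summed to 3831 to 5846 CPM under vehicle and 4707 to 7290 CPM under glutamine. Of 7 tested markers of other tubule segments, 6 had a higher fitted level (median log2 fold change 0.32), 3 of them at an unadjusted p below 0.05. Both Ptprc (0.10 to 1.52 CPM against 1.81 to 2.74 CPM) and the sum of the sort markers Prom1 and Ptprc were higher in each glutamine library. Prom1 alone overlapped between the groups, at 64.6 to 76.5 CPM under vehicle and 75.0 to 83.5 CPM under glutamine. Havcr1, the gene of the tubular injury marker KIM-1, picked after its values were seen, had 793, 541 and 106 CPM under vehicle and 94.1, 49.4 and 26.2 CPM under glutamine (log2 fold change -3.08, adjusted p = 0.178 in edgeR). Its groups did not overlap, and vehicle replicate 5, the vehicle library with the most Hmox1, had the least Havcr1 of its group. The part of these cell types and of the degree of injury in the Hmox1 difference was not tested.

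Hmox2, the constitutive enzyme, had a lower mean with glutamine. Hmox2 (chr16:4726361-4766742, plus strand) had 36.3, 27.6 and 13.2 CPM in the vehicle TEC libraries and 15.9, 16.5 and 11.8 CPM in the glutamine libraries. The groups overlapped, since vehicle replicate 5 lay among the glutamine values. Its log2 fold change was -0.81 (SE 0.36, unadjusted p = 0.047, adjusted p = 0.386 in edgeR). Of the 50-base windows of its main transcript, 47.7% overlap Cdip1 on the opposite strand, and whether the counting used strand is not given in the sources used here, so the value of Hmox2 is uncertain. Cdip1 itself was at 83.9 ± 22.0 CPM under vehicle and 91.9 ± 9.12 CPM under glutamine (SD, n = 3).

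The biliverdin reductase encoded by Blvra acts on the product of both heme oxygenases. Blvra (chr2:127070665-127097084, plus strand) had 64.8, 48.0 and 55.8 CPM under vehicle and 39.4, 38.4 and 35.4 CPM under glutamine. Its groups did not overlap, and the glutamine libraries were close together. The log2 fold change of Blvra was -0.58 (SE 0.21, unadjusted p = 0.02, adjusted p = 0.306 in edgeR). Blvrb (chr7:27447978-27466144, plus strand), which also acts as a flavin reductase, had 37.3, 50.7 and 26.1 CPM under vehicle and 43.1, 11.2 and 20.7 CPM under glutamine. Glutamine replicate 1 lay within the vehicle range, and the log2 fold change of -0.59 was little larger than its SE of 0.42 (adjusted p = 0.587 in edgeR). Its size rested on single libraries, at -1.24 without glutamine replicate 1, -0.33 without vehicle replicate 4 and -0.26 without glutamine replicate 2.

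The ferritin chains were by far the most abundant members in TECs and were lower on average with glutamine. Fth1 (chr19:9980598-9985098, plus strand) had 7313, 6598 and 5117 CPM under vehicle and 4251, 4101 and 5228 CPM under glutamine. The groups overlapped by vehicle replicate 5 and glutamine replicate 3, whose values were close. The log2 fold change of Fth1 was -0.49 (SE 0.21, unadjusted p = 0.042, adjusted p = 0.374 in edgeR).

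Ftl1 (chr7:45457944-45459884, minus strand) had 1563, 1346 and 1552 CPM in the vehicle TEC libraries and 1160, 940 and 1022 CPM in the glutamine libraries. All glutamine values lay below all vehicle values, and the log2 fold change was -0.51 (SE 0.19, unadjusted p = 0.019, adjusted p = 0.301 in edgeR). The row is uncertain on its own, because 90.6% of the 50-base windows of its transcript occur in other genes and 73.4% occur in Ftl1-ps1, a copy on chr13:74399694-74407346. Ftl1-ps1 held more counts than Ftl1 in every TEC library, 2.35 to 2.70 times as many, with 3672, 3373 and 3708 CPM under vehicle and 2883, 2527 and 2762 CPM under glutamine. Its groups did not overlap either, and its log2 fold change was -0.40 (SE 0.18, adjusted p = 0.395 in edgeR). With the counts of both rows summed, an alternative added after seeing the data, the light chain had a log2 fold change of -0.43 (adjusted p = 0.372 in edgeR), against -0.51 for Ftl1 alone. In PMN the same copy had only 0.0432 to 0.0580 times the counts of Ftl1.

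**Figure D2:**
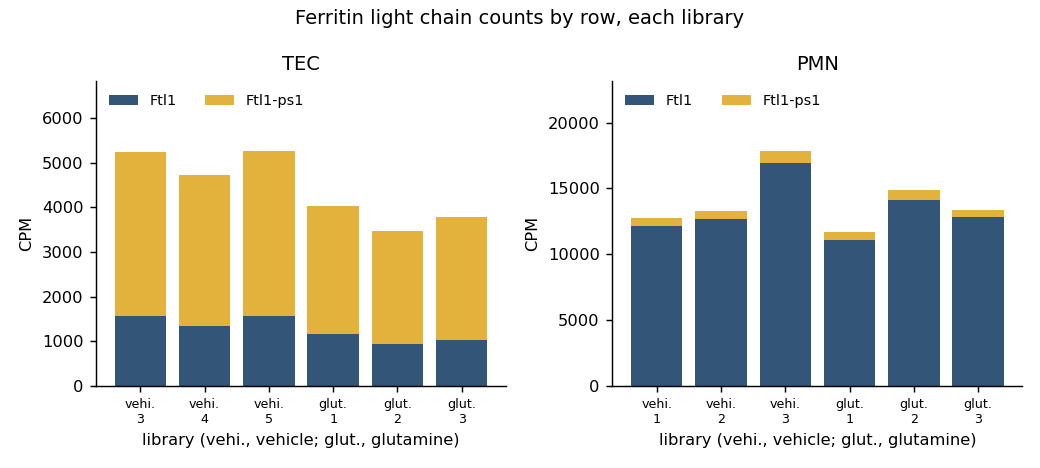
Stacked CPM of Ftl1 (blue) and of its copy Ftl1-ps1 (yellow) in each TEC library (left) and each PMN library (right), with axes from 0 that differ between the panels. Ftl1-ps1 takes the larger part of each bar in TECs and a thin slice in PMN, and the summed level in TECs is 4720 to 5260 CPM under vehicle and 3467 to 4043 CPM under glutamine.

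Together Fth1, Ftl1 and Ftl1-ps1 took 1.02% to 1.37% of all counts in the vehicle TEC libraries and 0.698% to 0.845% in the glutamine libraries. Of the other rows with ferritin symbols, Fth-ps2, Fth-ps3 and Ftl1-ps2 had no count in any TEC library, and Ftl2-ps had a mean of 0.0329 CPM under vehicle and none with glutamine.

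Among the iron transporters of TECs, the importers and the exporter were low. Tfrc (chr16:32608920-32632794, plus strand) had 33.1, 26.0 and 15.8 CPM under vehicle and 13.8, 15.3 and 21.4 CPM under glutamine. The groups overlapped, and the log2 fold change was -0.57 (SE 0.32, adjusted p = 0.488 in edgeR), or -0.32 without vehicle replicate 3. Slc40a1 (chr1:45908068-45926523, minus strand) had 16.2, 18.7 and 16.5 CPM under vehicle and 11.8, 13.1 and 15.5 CPM under glutamine. Its groups did not overlap, but the gap was narrow and the log2 fold change of -0.35 had a SE of 0.27 (adjusted p = 0.617 in edgeR). Slc11a2 (chr15:100387898-100425072, minus strand) had 29.7, 18.6 and 19.2 CPM under vehicle and 29.6, 41.0 and 19.96 CPM under glutamine. It was the one member besides Hmox1 with a higher fitted level, by 0.42 on the log2 scale (SE 0.31, adjusted p = 0.607 in edgeR), and its groups overlapped. That value depended on glutamine replicate 2, without which it was 0.14.

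Counted over the 9 members in TECs, 2 had a positive and 7 a negative log2 fold change, with a median of -0.51 against 0.0069 over all 14734 genes, of which 49.4% were negative. At an unadjusted p below 0.05 there were 5 members, against 12.7% of all genes; 4 of them were lower (Hmox2, Blvra, Fth1 and Ftl1), against 5.51% of all genes. The groups of Hmox1 did not overlap in the higher direction, as for 9.01% of all genes, and those of Blvra, Ftl1 and Slc40a1 did not overlap in the lower direction, as for 9.81% of all genes. Within the vehicle group, replicate 5 had the highest Hmox1 and the lowest Hmox2, Blvrb, Fth1 and Tfrc. Without it, the log2 fold change was 1.98 for Hmox1 (adjusted p = 0.0816 in edgeR) and -1.12 for Hmox2 (adjusted p = 0.114); without vehicle replicate 3, Hmox2 was at -0.48.

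**Figure D3:**
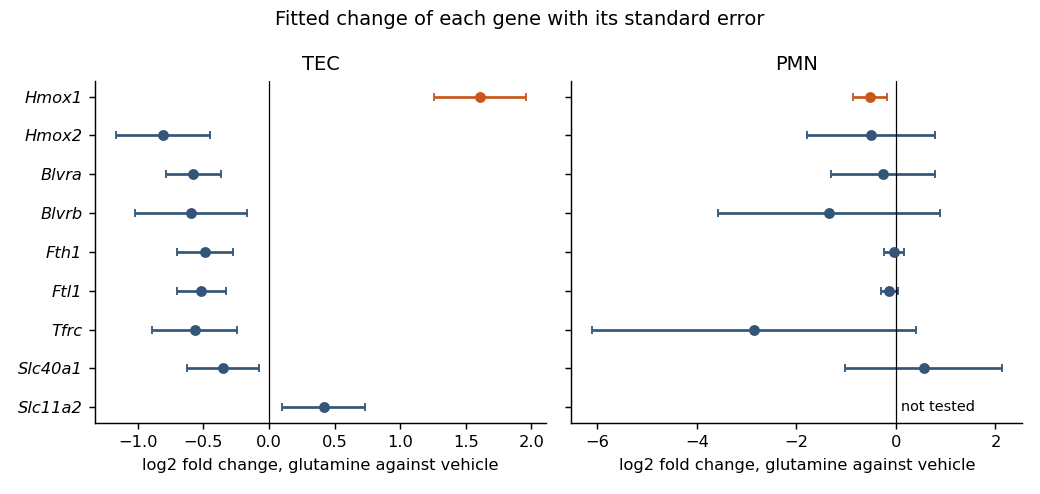
Fitted log2 fold change (glutamine against vehicle) of each gene with its standard error (SE) as a bar, in TECs (left) and PMN (right); the horizontal axes differ. In TECs Hmox1 stands at 1.61 on the other side of 0 from 7 genes between -0.81 and -0.35, and in PMN most bars cross 0.

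Per kilobase of the main transcript, a scale on which genes can be compared within the TEC libraries, Fth1 stood highest with 6828 ± 1206 CPM per kb with vehicle, followed by Ftl1 with 1536 ± 126 (SD, n = 3). The Ftl1 value leaves out the counts placed on its copy Ftl1-ps1, which stood at 3821 ± 196 CPM per kb, so the distance between the heavy and the light chain is uncertain. Hmox1 (59.6 ± 26.4), Blvra (48.5 ± 7.25) and Blvrb (37.0 ± 11.99) followed with ranges of 1 SD that overlapped. Hmox2 came next with 14.9 ± 6.73 CPM per kb, then Slc11a2 with 7.44 ± 2.06, Tfrc with 5.11 ± 1.78 and Slc40a1 with 5.08 ± 0.410. The 1 SD ranges of Hmox2 and Slc11a2 overlapped, as did those of Slc11a2 and Tfrc and those of Tfrc and Slc40a1. These ranges give the spread between libraries and do not compare genes within a library, so the order of these neighbours was not tested. With glutamine, Hmox1 reached 182 ± 65.9 CPM per kb and stood clear of Blvra (32.5 ± 1.78) and Blvrb (24.3 ± 15.9).

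Whether Hmox1 moved with each other gene was asked of the log2 ratio of Hmox1 to that gene in every TEC library (prior count of 2). The ratio to Ftl1 was -4.86, -3.88 and -3.51 with vehicle and -2.55, -1.87 and -1.35 with glutamine. The ratio to Fth1 was -7.09, -6.18 and -5.23 with vehicle and -4.42, -3.99 and -3.71 with glutamine. Both ferritin ratios were higher in every glutamine library, as the ratio of Hmox1 was to 65.9% of all tested genes. The ratio to Slc40a1 was 1.71, 2.27 and 3.03 with vehicle and 4.05, 4.28 and 4.67 with glutamine.

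The change of Hmox1 exceeded that of Slc40a1 by 1.998 on the log2 scale (SE 0.42), that of Fth1 by 2.12 (0.58), that of Ftl1 by 2.16 (0.53), that of Tfrc by 2.17 (0.70), that of Blvra by 2.21 (0.58), and that of Hmox2 by 2.34 (0.92). For these 6 genes the ratios of the groups did not overlap, and the exact two-sided permutation p was 0.1, the smallest that 3 libraries against 3 allow. Beside the 65.9% of all genes, 6 of 8 is a share near the background. The ratio to Blvrb overlapped between the groups (difference 2.40, SE 0.93, exact permutation p = 0.2), and so did the ratio to Slc11a2 (difference 1.25, SE 0.80, exact permutation p = 0.3). Leaving out any one library kept all 8 differences positive, the lowest being 0.68 for Slc11a2.

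**Figure D4:**
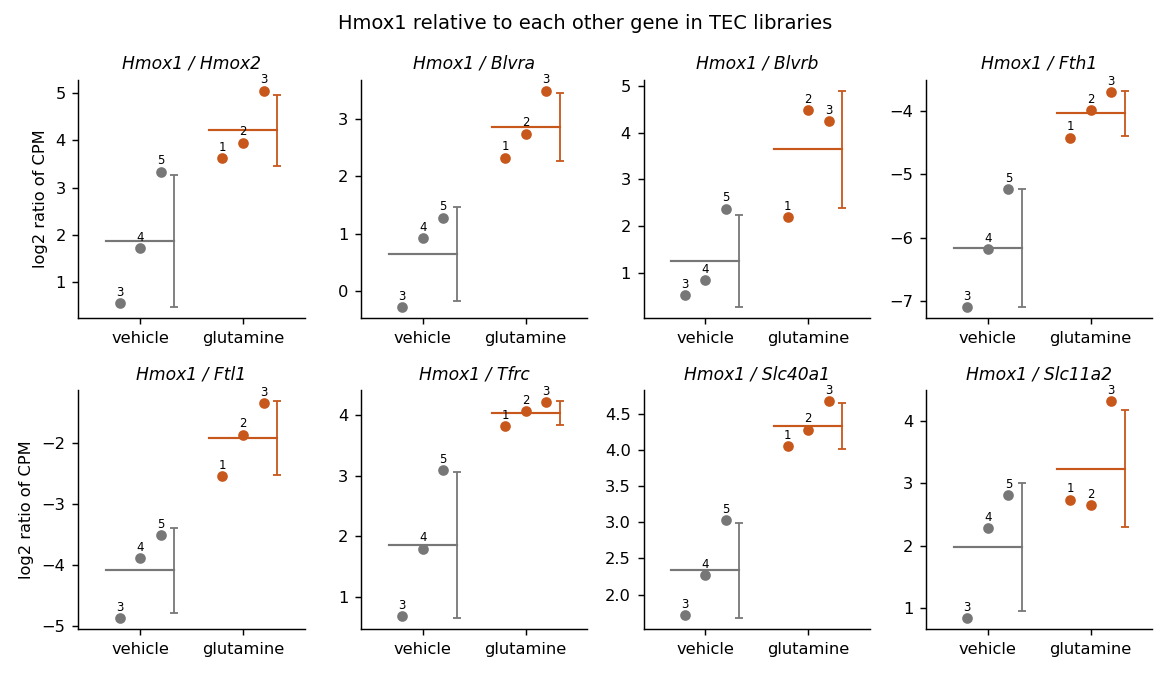
Log2 ratio of Hmox1 CPM to the CPM of each other gene in the 6 TEC libraries; points are libraries with their replicate numbers, lines the group means and bars the SD (n = 3), and each panel has its own axis, which does not start at 0. The glutamine points lie above the vehicle points except in the panels of Blvrb and Slc11a2.

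The same question can be put to the whole profile. After each gene's log2 CPM was centred over the 6 TEC libraries, the tested genes closest to Hmox1 by root-mean-square (RMS) difference were Gm44224, Gm43560, Gm15318, Gm42833 and Gm45342, all predicted gene models, with RMS differences of 0.154 to 0.242. None of the other members was near the top of the 14733 genes ranked. Slc11a2 at rank 6691 (RMS difference 1.01, percentile 45.4) and Slc40a1 at rank 8225 (1.08, percentile 55.8) stood near the middle. Hmox2 at rank 13373 (1.48) and Blvrb at rank 13531 (1.52) stood lowest. The measure uses the same 6 libraries as the ratios above.

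In PMN no member separated the groups, and Hmox1 was not higher with glutamine. Hmox1 had 1452, 743 and 1489 CPM under vehicle and 622, 937 and 1011 CPM under glutamine. Vehicle replicate 2 lay within the glutamine range, and the log2 fold change was -0.52 (SE 0.34, unadjusted p = 0.174, adjusted p = 1.0 in edgeR). The macrophage markers of these libraries summed to 16368 to 20883 CPM under vehicle and 17701 to 22386 CPM under glutamine, with Timd4, Marco and Clec4f at 0 in all 6 libraries and the defining marker Adgre1 at 15.03 to 105 CPM and 34.4 to 141 CPM. Their part in the PMN values was not tested.

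Fth1 and Ftl1 were the steadiest members in PMN. Fth1 had 29849, 20467 and 25508 CPM under vehicle and 30155, 24544 and 19473 CPM under glutamine, a log2 fold change of -0.03 (SE 0.20, adjusted p = 1.0 in edgeR). Ftl1 had 12106, 12660 and 16918 CPM under vehicle and 11047, 14137 and 12803 CPM under glutamine, a log2 fold change of -0.13 (SE 0.17, adjusted p = 1.0 in edgeR). For both chains the groups overlapped widely, and neither chain kept its sign: Fth1 turned without vehicle replicate 1 (0.08) or glutamine replicate 3 (0.11) and with upper-quartile scaling (0.033), and Ftl1 turned without vehicle replicate 3 (0.023). Fth1, Ftl1 and Ftl1-ps1 together took 3.24% to 4.39% of all counts of a PMN library.

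Hmox2 and the reductases varied severalfold within each PMN group. Hmox2 had 4.01, 109 and 145 CPM under vehicle and 14.5, 113 and 54.7 CPM under glutamine (log2 fold change -0.50, SE 1.28); the sign turned with limma-voom (0.14) and without vehicle replicate 3 (0.098). Blvra had 18.9, 46.5 and 65.8 CPM under vehicle and 57.7, 38.4 and 13.5 CPM under glutamine (log2 fold change -0.26, SE 1.04), and its sign turned without vehicle replicate 3 (0.15) or glutamine replicate 3 (0.13). Blvrb had 0, 56.0 and 40.8 CPM under vehicle and 2.42, 12.4 and 23.3 CPM under glutamine (log2 fold change -1.35, SE 2.23, but 1.198 with limma-voom). In each case replicates of one group lay farther apart than the group means, and the 0 of Blvrb in vehicle replicate 1 allows up to 0.150 CPM (3 counts, counting error only).

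The transporters were patchier still in PMN. Slc40a1 had 155, 0.137 and 132 CPM with vehicle, the second value resting on 3 counts, and 100, 128 and 194 CPM under glutamine. Its log2 fold change of 0.55 (SE 1.58) came from that one library and was -0.04 without it; limma-voom, which works on log values, gave 3.32. Tfrc had 44.7, 0 and 5.33 CPM under vehicle and 0, 6.88 and 0 CPM under glutamine; its log2 fold change of -2.86 (SE 3.26) was -0.21 without vehicle replicate 1. A count of 0 for Tfrc allows 0.137, 0.158 and 0.151 CPM in vehicle replicate 2 and glutamine replicates 1 and 3. Slc11a2 had 397 counts (18.9 CPM) in vehicle replicate 3 and none in any other PMN library, and it did not pass the expression filter.

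**Figure D5:**
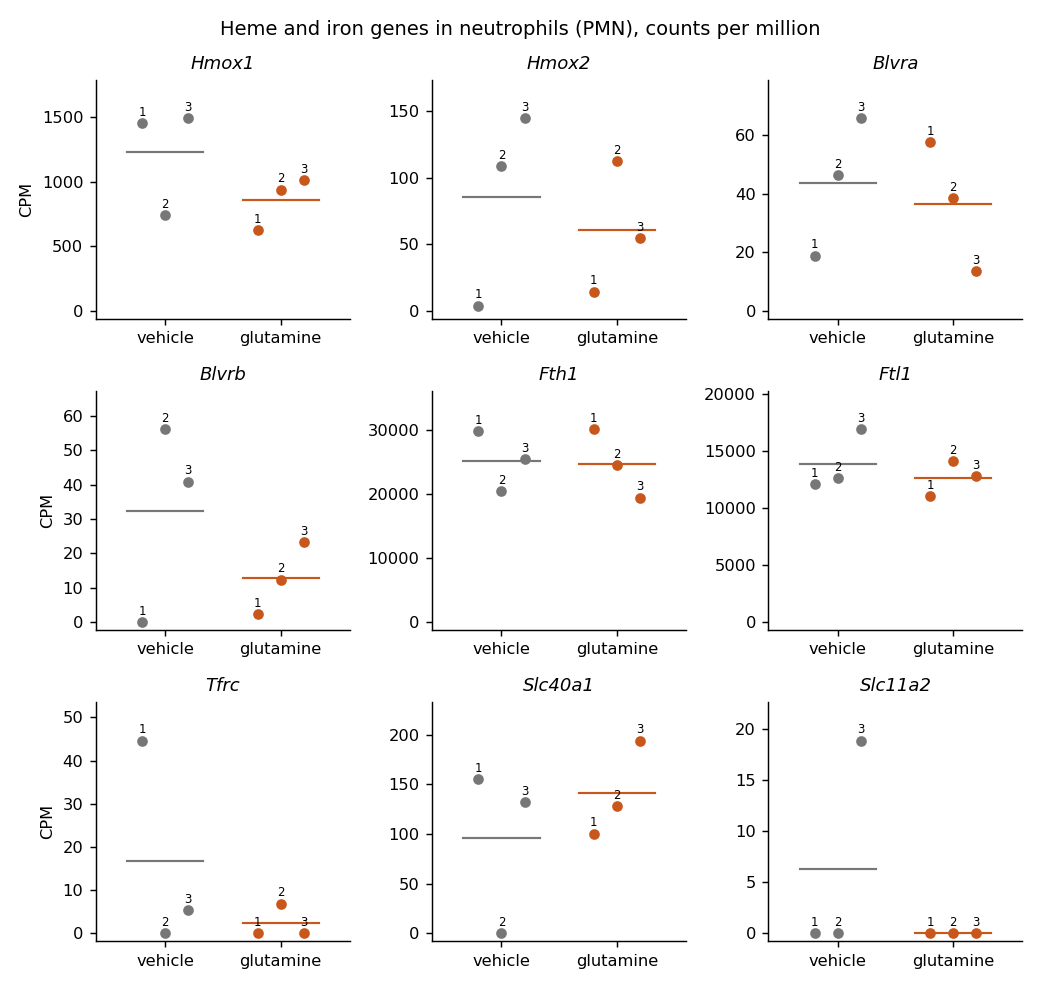
CPM of each of the 9 genes in the 6 PMN libraries; points are libraries with their replicate numbers and horizontal lines the group means, and each panel has its own axis with 0 marked. The vehicle and glutamine points overlap in every panel, and Tfrc, Slc11a2, Blvrb and Slc40a1 include libraries at or near 0.

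Of the 8 members tested in PMN, 1 had a positive and 7 a negative log2 fold change, with a median of -0.38 against 0.00020 over all 10130 genes, of which 49.99% were negative. That count depends on the method: with limma-voom Hmox2 (0.14) and Blvrb (1.198) were positive beside Slc40a1. None had an adjusted p below 0.05, as for 0% of all genes in edgeR, and none had an unadjusted p below 0.05, which 346 genes (3.42%) had. DESeq2's Wald test called 304 of 11123 genes (2.73%) and none of these 8. The groups overlapped for all 8, whereas 5.87% of all genes did not overlap in the higher and 4.63% in the lower direction.

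The ratios of Hmox1 to the other members in PMN overlapped between the groups for 6 of 7 genes, with exact permutation p-values of 0.4 to 1. The ratio to Slc40a1 was lower in each glutamine library (difference -3.49, SE 2.76, exact permutation p = 0.1, the smallest possible), as the ratio of Hmox1 was to 9.43% of all genes; without vehicle replicate 2, the library with 3 counts of Slc40a1, the difference was -0.73. By RMS difference the genes closest to Hmox1 in PMN were Gm48269, Snx20, Gm42798, Rpl13a and Psmb2 (0.139 to 0.196), and Ftl1 stood at rank 124 (0.375) and Fth1 at rank 461 (0.492) of 10129. A gene that varies little also comes out close by this measure, and the remaining 5 members stood at ranks 3274 to 7972.

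The difference between cell types was tested as the mean log2 change in TECs minus that in PMN, by an exact two-sided permutation of treatment within each cell type over 400 assignments. For Hmox1 the change was 1.65 in TECs and -0.48 in PMN, a difference of 2.13 with an exact permutation p of 0.015. At or below 0.05 were 5.59% of the 8950 genes tested in both, and the p of Hmox1 adjusted over all of them was 0.71, where 0.005 is the smallest unadjusted p possible. The other 7 members had exact permutation p-values between 0.205 (Ftl1, difference -0.39) and 0.755 (Blvrb, difference -1.33). Without PMN vehicle replicate 1, the library with no count of Blvrb, the difference turned to 1.65 for Blvrb, 0.79 for Hmox2 and 0.26 for Blvra; that of Blvra also turned without PMN glutamine replicate 1 (0.19). For 2 of them the PMN change on this scale (mean log2 CPM, prior count of 2) has the opposite sign to the fitted PMN value given above: 0.57 against -1.35 for Blvrb and 0.16 against -0.50 for Hmox2. Fth1 differed by -0.44 (exact permutation p = 0.245), or by -0.29 without PMN glutamine replicate 1.

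Further genes of the pathway were taken from 6 lists of heme synthesis, heme transport, iron uptake and reduction, iron storage and its regulators, mitochondrial iron and iron-sulfur clusters, and regulators of Hmox1 transcription. Of their 84 genes 67 were tested in TECs, 26 with a positive and 41 with a negative log2 fold change (median -0.08), and none had an adjusted p below 0.05. The lists of iron uptake (2 positive and 10 negative, median -0.34) and of iron storage (1 positive and 7 negative, median -0.38) held mostly lower values, heme synthesis had 2 positive and 8 negative (median -0.13), and the regulators of Hmox1 mostly higher ones (10 positive and 2 negative, median 0.23). Heme transport (4 positive and 5 negative) and mitochondrial iron (7 positive and 9 negative) had medians of -0.06 and -0.08.

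At an unadjusted p below 0.05 there were 5 of the 67 genes in TECs, a smaller share than the 12.7% of all genes, and each had groups that did not overlap (9.01% of all genes in the higher and 9.81% in the lower direction). Steap1, of the STEAP family of membrane metal reductases, had 58.8 ± 11.1 CPM under vehicle and 28.1 ± 3.13 CPM under glutamine (SD, n = 3), with a log2 fold change of -1.06 (adjusted p = 0.178 in edgeR). Bola2, a partner of glutaredoxins in handling iron-sulfur clusters, had a log2 fold change of -0.52, Pcbp2, which encodes an RNA-binding protein that also delivers iron, one of -0.44, and Nubp1, an assembly factor of cytosolic iron-sulfur proteins, one of -0.78 (adjusted p = 0.319 to 0.359 in edgeR). Mafk, a small Maf protein that pairs with the activator Nrf2 or the repressor Bach1 at the enhancers of Hmox1, had 9.64 ± 1.70 CPM under vehicle and 16.2 ± 0.471 CPM under glutamine, a log2 fold change of 0.75 (adjusted p = 0.33 in edgeR).

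The main regulators of Hmox1 did not separate the TEC groups. Nfe2l2, which encodes Nrf2, had 58.3, 105 and 165 CPM under vehicle and 92.7, 99.2 and 154 CPM under glutamine, a log2 fold change of 0.08 (SE 0.34). Bach1 had 15.2 ± 0.884 CPM under vehicle and 21.03 ± 5.08 CPM under glutamine, and Keap1, which encodes the inhibitor of Nrf2, 50.2 ± 2.92 and 47.6 ± 18.1 CPM (SD, n = 3). In PMN, 56 genes of the lists were tested, 28 with a positive and 28 with a negative log2 fold change, and 1 of the 56, Nfe2l2, had an unadjusted p below 0.05, as 3.42% of all genes did. It had 634, 421 and 387 CPM under vehicle and 1132, 649 and 990 CPM under glutamine, so that the groups did not overlap, as for 5.87% of all genes in this direction (log2 fold change 0.94, SE 0.33, adjusted p = 1.0 in edgeR), while Hmox1 in the same libraries had a lower mean with glutamine.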

How the data were processed

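RNA of TECs and PMN from 12 samples was sequenced after poly(A)-based reverse transcription, in single-end reads of 50 bases according to the labels of all samples. Per the labels, the submitters' processing notes name FastQC, MultiQC, Trim Galore 0.6.4, Salmon 1.0.0, DESeq2 and mm10; strand settings are not given in the sources used here. Each cell type has 1 table, which the authors gave as raw estimated counts from Salmon, 1 row for each gene symbol. The PMN table had passed through a spreadsheet: 3.2% of its cells held extra points and 0.391% had become dates, none in rows of the 9 genes. Points before the last were dropped as digit-group marks. Each PMN library has 2 columns (r = 0.995 to 0.996 within a library, 0.771 to 0.824 between libraries, on log2(count + 1)); what the 2 columns are (lanes, repeat runs or read ends) is not given in the sources used here, and they were averaged and counted as 1 replicate. No column was left unused.

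Counts were rounded and tested per cell type with edgeR 4.0.16 (R 4.3.3; TMM, default expression filter, quasi-likelihood test, Benjamini-Hochberg adjusted p below 0.05 over all genes tested); the standard error came from the fold change and the F statistic. Log2 ratios used a prior count of 2 and exact permutation tests; where an adjustment over the members had been planned, the p adjusted over all genes is printed instead, and the ratios, whose p cannot go below 0.1, are given unadjusted. DESeq2 1.42.0, limma 3.58.1, other normalizations and filters, single PMN columns and leaving out each library were alternatives. The script was tested on simulated counts. Gene positions came from GENCODE M21 (GRCm38, the same build as mm10).

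The 9 genes, the 16 lists of other heme, iron and marker genes and the tests were chosen with earlier results of these data known. Named genes were all 9 members, up to 8 genes of the heme and iron lists per cell type with the smallest p among those with an unadjusted p below 0.05, the 5 genes closest to Hmox1, the ferritin copies, and marker and regulator genes picked after their values were seen. Intervals for 0 counts (3 counts) cover counting error only.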

Additional observations from a re-analysis of the deposited data

Results flagged for a closer look

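The mean log2 change of Hmox1 with glutamine was 1.65 in TECs and -0.48 in PMN, a difference of 2.13 (exact two-sided permutation p = 0.015). The PMN change itself was not separated from 0 (fitted log2 fold change -0.52, SE 0.34, unadjusted p = 0.174 in edgeR), so opposite directions are not established. The difference stands here because its own test fell below 0.05 before adjustment. Over the 8950 genes tested in both cell types the adjusted p was 0.71, and 5.59% of those genes had a p as low as 0.05. Hmox1 was higher in 3 of 3 glutamine libraries than in any vehicle library in TECs, and in PMN the groups overlapped. Cell type and sequencing run cannot be told apart.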

How the results depend on the processing

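In TECs, all 9 genes kept the direction of their difference under every alternative run, but single libraries moved some sizes by over 1.5 times: Blvrb was at -1.24 without glutamine replicate 1, -0.33 without vehicle replicate 4 and -0.26 without glutamine replicate 2, Tfrc at -0.32 and Hmox2 at -0.48 without vehicle replicate 3, and Slc11a2 at 0.14 without glutamine replicate 2, 0.66 without vehicle replicate 3 and 0.64 without glutamine replicate 3. The count of genes past the threshold was 0 in edgeR, 245 with DESeq2, 425 without a filter on low counts, and 0 to 36 when 1 library was left out (36 without glutamine replicate 2 and 4 without vehicle replicate 5); the cause was not tested. Hmox1 passed the threshold with DESeq2 (log2 fold change 1.61, adjusted p = 0.000498) and without the filter (1.58, adjusted p = 1.28e-07), and no other member did under any alternative. Leaving out 1 library gave Hmox1 1.28 to 1.98 (edgeR adjusted p 0.0816 to 0.51).

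In PMN, DESeq2 gave 304 genes against 0 in edgeR; the cause was not tested. Limma-voom turned Hmox2 to 0.14 and Blvrb to 1.198 and gave Slc40a1 3.32, and upper-quartile scaling turned Fth1 to 0.033. Leaving out 1 library, the log2 fold change ranged from -0.79 (without vehicle replicate 2) to -0.36 (without glutamine replicate 1) for Hmox1, -2.12 to -0.69 for Blvrb, -11.43 (without glutamine replicate 2, where the glutamine group is at 0 and the value is no bound) to -0.21 for Tfrc, -1.37 to 0.10 for Hmox2, -0.78 to 0.15 for Blvra, -0.22 to 0.11 for Fth1, -0.27 to 0.023 for Ftl1 and -0.037 to 1.04 for Slc40a1. The change of Hmox1 minus that of Hmox2 ranged from -1.69 to 1.16, minus Blvra from -0.90 to 0.50, and minus Blvrb from -2.98 to 2.08. The TEC change minus the PMN change ranged from 1.78 to 2.46 for Hmox1 (lowest without TEC vehicle replicate 3, highest without PMN vehicle replicate 2), -1.78 to 0.79 for Hmox2, -0.85 to 0.26 for Blvra, -2.93 to 1.65 for Blvrb, -4.96 (without PMN vehicle replicate 1) to -0.27 (without PMN vehicle replicate 2) for Slc40a1 and 0.32 to 4.74 (without the same 2 libraries in turn) for Tfrc. Without PMN vehicle replicate 2, Hmox1 passed the threshold after adjustment over the 8 members, which is not independent of their choice.

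No paired analysis was possible because replicate number 3 is the one number that both TEC groups have and the PMN labels carry none.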

Other observations

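Markers of the remaining cell types overlapped between the TEC groups. Neutrophil markers summed to 102 to 244 CPM under vehicle and 118 to 252 CPM under glutamine, lymphocyte markers to 10.5 to 23.1 and 15.02 to 26.3 CPM, platelet markers to 6.72 to 30.0 and 11.1 to 29.1 CPM, endothelial markers to 282 to 387 and 243 to 358 CPM, and tubule markers beyond the proximal segment to 1204 to 2358 and 1572 to 2589 CPM. Immature neutrophil markers did not exceed 1.21 CPM, with Elane, Prtn3 and Ctsg at 0 in all TEC libraries.

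In PMN, neutrophil markers summed to 30287 to 52452 CPM under vehicle and 20868 to 72551 CPM under glutamine, and red cell markers to 23.2 to 35.8 and 28.3 to 135 CPM. Immature neutrophil markers summed to 1.41 to 101 and 20.6 to 101 CPM, platelet markers to 533 to 1052 and 472 to 775 CPM, and proximal tubule markers to 48.5 to 74.1 and 60.5 to 161 CPM. Endothelial markers spanned 2.66 to 1832 CPM under vehicle against 13.01 to 60.6 CPM under glutamine, and other tubule markers 7.42 to 1220 against 5.19 to 37.9 CPM. Lymphocyte markers did not overlap (0.902 to 20.6 CPM against 25.4 to 33.5 CPM), and neither did Ptprc, the gene of CD45 (317 to 569 CPM against 754 to 1150 CPM). The part of these cell types in the values of the heme and iron genes was not tested.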
